A study of Mus musculus with 45 samples.

Results

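Gpr83, Folr4, Faim3, Igfbp4, Prg4, Tbc1d4, Ift80 and Dapl1 are 8 genes, of 23420 in the count table, whose RNA was lower in tumour than in lymph node (LN) regulatory T cells of wild-type (WT) mice. The genes were chosen by that difference in the WT samples, which therefore only describe them below and give no test. All 8 were among the 14668 genes that passed the filter on low counts. Regulatory T cells (Tregs) are CD4 T cells that depend on the transcription factor Foxp3 and restrain immune responses. Resting Tregs recirculate through lymph nodes and share with naive T cells the homing and quiescence genes Ccr7, Tcf7 and Klf2, whereas effector Tregs in tissues and tumours carry more inhibitory receptors, cytokines and granzymes. Among the 8 genes are cell surface receptors (Gpr83, Folr4 and Faim3), secreted proteins (Igfbp4 and Prg4) and intracellular proteins (Tbc1d4, Ift80 and Dapl1).

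RNA was sequenced from T cells sorted out of mice that carried B16 melanoma, a transplantable skin tumour, with 45 libraries in 9 groups of 5. Tregs labelled N, Het_Nrp1-, Het_WT and WT were taken from the tumour and from lymph nodes that do not drain it, and WT effector T cells from the tumour alone. Het_Nrp1- and Het_WT name Tregs labelled as lacking and keeping neuropilin-1 (Nrp1), a membrane co-receptor, with the design text naming heterozygous mice. The samples called N here carry the genotype label Het_Nrp1- too but have titles of their own, and the design text also names homozygous deficient mice, so they were kept apart by title. Tregs were sorted once or a second time, 5000 cells per library, per the labels' protocols. The sources used here give neither the age of the mice nor the promoter that drives the deletion. Since no label ties replicates to separate animals, p-values below measure the spread between samples alone, and that spread may be technical.

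Igfbp4 and Dapl1, the members that stood highest in effector T cells, and Gpr83, which stood low there, are shown with the 250 bases before their start sites, to set their promoter letters beside the levels below. The sequences are RefSeq's on GRCm38.p6 (mm10), on the strand of the gene, and capitals mark the only motif found in them.
Igfbp4 promoter, chr11:99040994-99041243, plus strand: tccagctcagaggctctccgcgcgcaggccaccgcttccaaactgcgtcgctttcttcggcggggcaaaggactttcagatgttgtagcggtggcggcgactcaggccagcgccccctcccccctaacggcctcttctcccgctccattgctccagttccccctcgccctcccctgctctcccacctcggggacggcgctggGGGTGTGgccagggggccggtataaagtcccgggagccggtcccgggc
Dapl1 promoter, chr2:59484403-59484652, plus strand: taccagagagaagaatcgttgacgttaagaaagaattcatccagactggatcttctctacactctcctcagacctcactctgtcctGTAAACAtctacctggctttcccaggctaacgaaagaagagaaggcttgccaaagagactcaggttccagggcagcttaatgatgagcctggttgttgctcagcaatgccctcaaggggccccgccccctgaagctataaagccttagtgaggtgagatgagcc
Gpr83 promoter, chr9:14859960-14860209, plus strand: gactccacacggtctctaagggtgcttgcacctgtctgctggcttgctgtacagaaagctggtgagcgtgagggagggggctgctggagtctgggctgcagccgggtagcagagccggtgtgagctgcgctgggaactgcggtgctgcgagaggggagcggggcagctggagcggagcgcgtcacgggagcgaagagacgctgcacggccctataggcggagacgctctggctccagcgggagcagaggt
Letters known as binding motifs of transcription factors were searched on both strands: CTTTGAA or CTTTGAT (TCF7 and LEF1), TGTTTAC (FOXO), TGTGGTT (RUNX), CACACCC (KLF) and CACGTG (E-box). The capitals in Igfbp4 are CACACCC on the opposite strand, 48 to 42 bases before the start, and those in Dapl1 are TGTTTAC on the opposite strand, 164 to 158 bases before it. No 2 matches overlapped, since each of these promoters held at most 1. Promoters were listed for 6 of the 8 members, with Prg4 and Ift80 the exceptions. CACACCC was in 1 of the 6 and in 6.93% of 32851 listed promoters, and TGTTTAC in 1 of the 6 and in 3.17% of them. The other motifs were in 0 of the 6, against 7.48% (TCF7 and LEF1), 4.40% (RUNX) and 6.02% (E-box) of all promoters. GC content was 69.2% in the Igfbp4 window, 66.8% in that of Gpr83 and 50% in that of Dapl1. These matches describe letters in a window and say nothing of binding.

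Total counts ran from 2945640 to 35787100 per library (to 6 digits), with the ds2 libraries, read as double sorted from their names, the shallowest at 2945640 to 5408380. In 4 pairs of libraries of a heterozygous group the counts differed by little more than sampling noise (chi-square per degree of freedom 2.42 to 2.75, against 68.4 or more in the other 86 pairs of a group). Between groups the lowest value was 14.9, for the tumour ds2 libraries of Het_Nrp1- and N. Summing each of the 4 pairs into 1 sample left 41 samples, with n = 4 for the heterozygous groups and n = 5 for the rest. Foxp3 averaged 18.1 to 28.0 CPM (counts relative to the size of the library) in the tumour Treg groups, 12.9 to 17.7 CPM in the LN Treg groups and 0.383 CPM in effector T cells, and single LN Treg samples ranged from 0 to 68.8 CPM. Nrp1 averaged 154 ± 21.6 CPM in N, 154 ± 71.2 CPM in Het_Nrp1-, 155 ± 59.3 CPM in Het_WT and 171 ± 78.9 CPM in WT tumour Tregs, and 211 ± 75.5, 197 ± 96.4, 583 ± 573 and 359.7 ± 64.2 CPM in LN Tregs of N, Het_Nrp1-, Het_WT and WT (SD). The sources used here do not give the deleted part of Nrp1, so its gene-wide counts are no check of the genotype labels. A list of 8 Treg markers summed to 2229.5 to 10095 CPM in Treg samples and 149 to 373 CPM in effector T cells. That list includes Nrp1, the gene of the genotype labels, and Tnfrsf18. In edgeR's test Tnfrsf18 was higher in tumour than in LN Tregs of N (adjusted p = 0.00497) and Het_Nrp1- (adjusted p = 0.000154). Melanoma markers, 7 in number, summed to 4.61 to 3534 CPM in tumour Tregs and 0.634 to 72.2 CPM in LN Tregs. Stroma and lymphatic markers, 8 in number, summed to 34.1 to 103 CPM in N, 18.6 to 69.9 CPM in Het_Nrp1- and 19.6 to 84.3 CPM in Het_WT tumour Tregs. In LN Tregs the stroma and lymphatic sums were 31.3 to 126 CPM in N, 64.6 to 161 CPM in Het_Nrp1- and 36.2 to 122 CPM in Het_WT, and in effector T cells 80.9 to 234 CPM. Lyve1 of that list was at 0 in Het_Nrp1- tumours. Markers of CD8 T and natural killer cells, 6 in number, summed to 57.2 to 395 CPM in N, 31.7 to 224 CPM in Het_Nrp1- and 82.5 to 430 CPM in Het_WT tumour Tregs. In LN Tregs these sums were 31.6 to 241 CPM in N, 23.9 to 863 CPM in Het_Nrp1- and 7.14 to 305 CPM in Het_WT. The 863 CPM was in Het_Nrp1- LN ds1, where the next highest sample of the group held 319 CPM. Macrophage and dendritic cell markers, 11 of 12 listed being in the table, summed to 30.4 to 144 CPM in N, 21.6 to 154 CPM in Het_Nrp1- and 27.6 to 269 CPM in Het_WT tumour Tregs. In LN Tregs they summed to 0 to 80.7 CPM in N, 1.35 to 92.0 CPM in Het_Nrp1- and 14.8 to 100 CPM in Het_WT. The part of these lists in the results below was not tested. CPM below is scaled by TMM, a normalization on the bulk of genes. Sample values are given in the order replicate 2, 3, 4, ds1 and ds2. In the heterozygous LN groups replicate 4 stands for 3 and 4 summed, and in the heterozygous tumour groups for ds1 and 4 summed, so their 4 values are of 2, 4, ds1 and ds2 in LN and of 2, 3, 4 and ds2 in tumours.

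The tissue comparison asks how Tregs in the tumour differ from those of lymph nodes outside its drainage, here in the 3 kinds of Treg that did not choose the genes. All 8 genes had a lower fitted level in tumour than in LN Tregs of all 3 kinds. In N Tregs 3 of the 8 fell past the threshold (Igfbp4, Ift80 and Dapl1), against 0.225% of all genes tested. In Het_Nrp1- Tregs 4 fell (Gpr83, Faim3, Igfbp4 and Ift80), against 0.307%, and in Het_WT Tregs 3 fell (Faim3, Igfbp4 and Ift80), against 0.075%. None of the 8 rose, against 0.566% of all genes in N, 0.348% in Het_Nrp1- and 0.164% in Het_WT. Igfbp4 and Ift80 thus fell in each of the 3, while Folr4, Prg4 and Tbc1d4 passed in none in this fit, which has no term for replicate number. The threshold was a Benjamini-Hochberg adjusted p below 0.05 in edgeR's quasi-likelihood test over 14668 genes. The median log2 fold change of the 8, tumour over LN, was -2.82 in N, -3.31 in Het_Nrp1- and -2.85 in Het_WT, beside all-gene medians of 0.06, -0.10 and -0.17. Every tumour sample lay below every LN sample for 5 members in N, 4 in Het_Nrp1- and 5 in Het_WT, against 1.57%, 2.67% and 2.11% of all genes. In bulk samples, fewer cells that express a gene and less RNA per cell cannot be told apart. Scaling by DESeq2's size factors moved the median of all genes by 0.11 in N, -0.12 in Het_Nrp1- and -0.11 in Het_WT, and the calls over all genes to 123 lower and 55 higher, against 45 and 51, in Het_Nrp1-, and to 12 lower and 16 higher, against 11 and 24, in Het_WT. All 8 genes kept negative fold changes under it, and it changed no member's call. The 3 kinds of Treg came from separate samples, but the genes were chosen with earlier results of these data known, so these counts are no independent support.

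**Figure D1:**
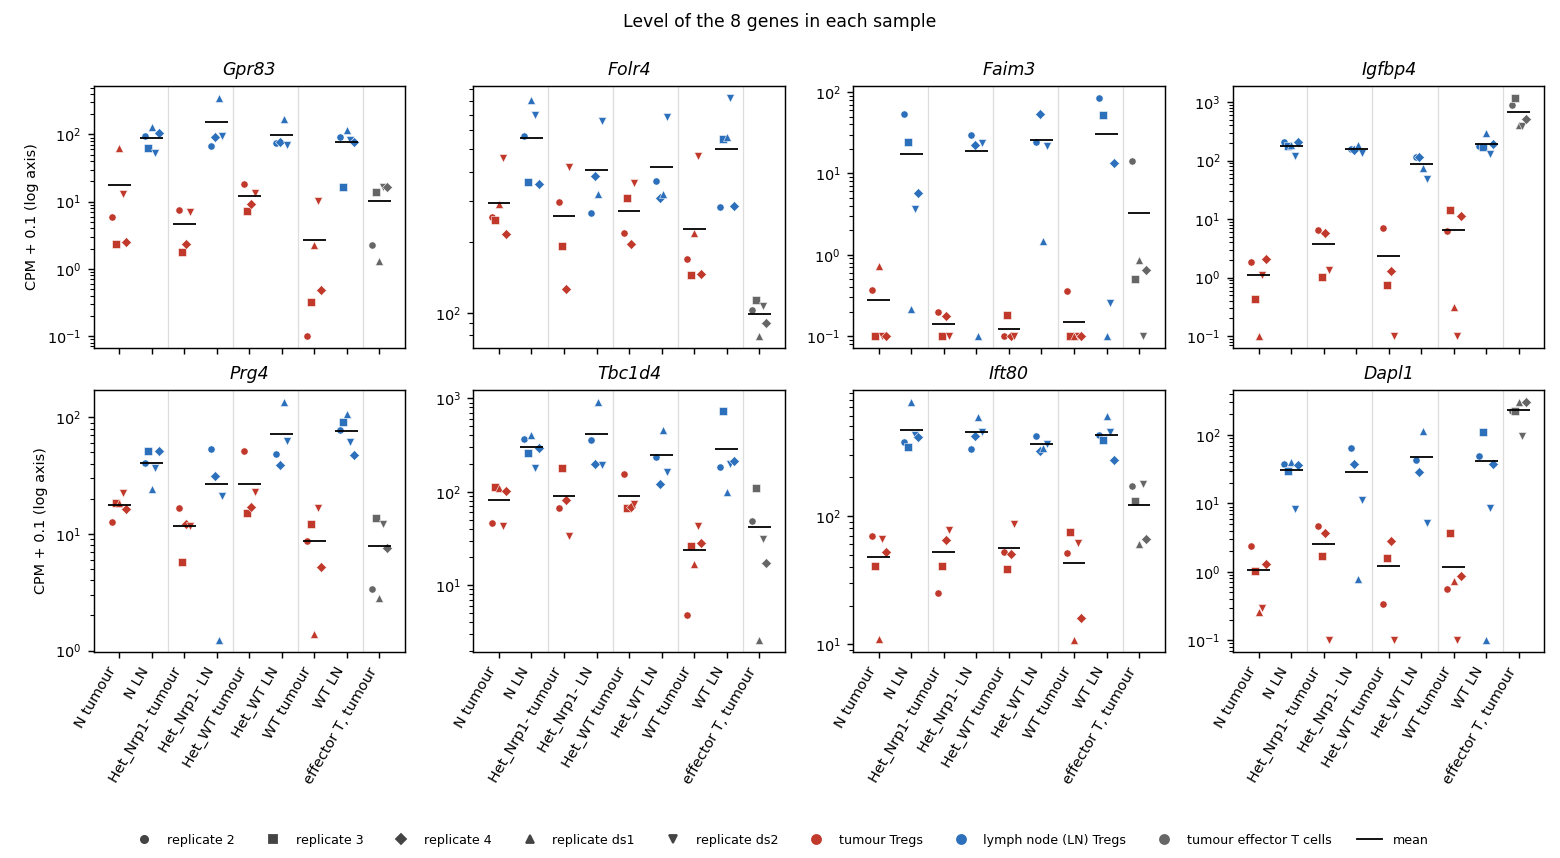
CPM plus 0.1 (log axis) of the 8 genes in each of the 41 samples, by group, with marker shapes for replicates and a bar for the mean of CPM, plotted with the same 0.1 added. Tumour Tregs lie below LN Tregs for most genes, and Igfbp4 and Dapl1 are highest in effector T cells, with means of 677 and 231 CPM.

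**Figure D2:**
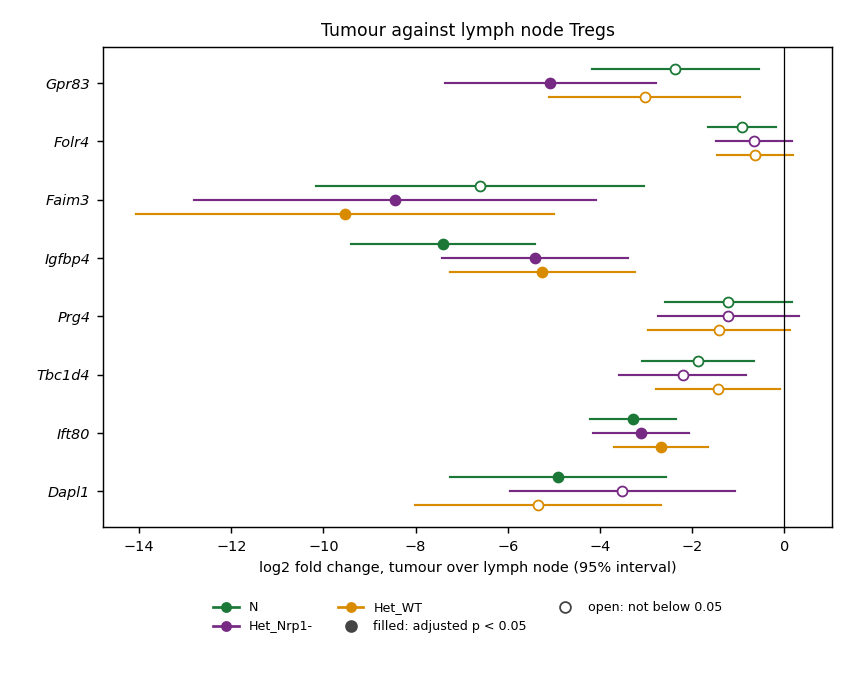
Fitted log2 fold change, tumour over LN, with 95% intervals for N (n = 5 each), Het_Nrp1- and Het_WT Tregs (n = 4 each), where filled points have an adjusted p below 0.05. All points lie below 0, from -0.63 for Folr4 in Het_WT to -9.53 for Faim3 in Het_WT, whose tumour group held 2 counts in all.

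Gpr83 encodes a G protein-coupled receptor long used as a Treg-enriched transcript. Its locus is on chromosome 9 (mm10, 14860210 to 14870789, plus strand). Its level was 5.75, 2.27, 2.40, 63.4 and 13 CPM in N tumour Tregs, against 94.6, 62.2, 106, 129.9 and 52.3 CPM in N LN Tregs. The ds1 tumour sample alone reached into the LN range, and the other 4 lay below it. Het_Nrp1- Tregs had 7.43, 1.66, 2.23 and 6.89 CPM in tumours, against 67.4, 90.6, 353 and 96.4 CPM in LN. Het_WT Tregs had 18.1, 7.18, 9.23 and 13.2 CPM in tumours, against 75.3, 77.1, 168 and 69.6 CPM in LN. Neither heterozygous pair of groups overlapped, and the LN ds1 sample was the highest in both. Its TMM factor was 0.552 in Het_Nrp1- and 0.705 in Het_WT, against 1.001 to 1.222 in the other LN samples of these groups. The ds1 samples of the other groups had low factors too. These were 0.731 in N LN, 0.791 in N tumour, 0.780 in WT LN and 0.820 in WT tumour Tregs, and 0.686 in effector T cells. Outside ds1 the lowest was 0.797, in WT LN replicate 3. On the authors' deposited log2 values of Gpr83, Het_Nrp1- LN ds1 was the lowest of its group, at 4.22 against 5.21 to 8.10, and Het_WT LN ds1 was 5.58 against 4.94 to 7.16. In those values each gene had the same mean in every replicate number. The rank of ds1 within a group there is thus not comparable with its rank by CPM. The log2 fold change, tumour over LN, was -5.08 in Het_Nrp1- (95% interval -7.37 to -2.78, edgeR adjusted p = 0.0151), -3.03 in Het_WT (-5.11 to -0.95, adjusted p = 0.311) and -2.36 in N (-4.17 to -0.55, adjusted p = 0.282). The Het_Nrp1- call was lost without the LN ds1 sample (log2 fold change -4.22, adjusted p = 0.0890) and without any 1 of the 4 tumour samples (adjusted p 0.0517 to 0.0996). In N the gene passed without the tumour ds1 sample (log2 fold change -3.94, adjusted p = 0.0457).

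Folr4, also named Izumo1r, encodes a GPI-anchored protein of the folate receptor family that serves as the egg's receptor for sperm and marks Tregs among T cells. The gene is on chromosome 9 (mm10, 14885814 to 14903949, minus strand), next to Gpr83, with 15024 bases and no annotated gene between their facing ends. Tumour Tregs of N mice held 255, 249, 215, 289.6 and 459 CPM, against 566, 361, 355, 804 and 695 CPM in N LN Tregs. The ranges overlapped, with tumour ds2 above LN replicates 3 and 4. In the heterozygous groups it ran from 126 to 417 CPM in Het_Nrp1- tumours, against 266 to 655 CPM in LN, and from 196 to 359 CPM in Het_WT tumours, against 308 to 681 CPM in LN. The ranges overlapped in both, and in 7 of the 8 Treg groups the ds2 sample was the highest for Folr4, the exception being N LN. Its log2 fold changes were the nearest to 0 of the 8 genes: -0.92 in N (-1.66 to -0.18), -0.65 in Het_Nrp1- (-1.48 to 0.18) and -0.63 in Het_WT (-1.46 to 0.20), with adjusted p from 0.336 to 0.723 in edgeR.

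Faim3, now named Fcmr, encodes the receptor for the Fc part of IgM, best known on B cells and present on other lymphocytes. On mm10 its locus spans 130865669 to 130880791 of chromosome 1 (plus strand). It was close to 0 in tumour Tregs, with 0.265, 0, 0, 0.636 and 0 CPM in N, 0.0953, 0, 0.0743 and 0 CPM in Het_Nrp1- and 0, 0.0825, 0 and 0 CPM in Het_WT. LN Tregs held 53.7, 24.1, 5.72, 0.116 and 3.59 CPM in N, 29.6, 22, 0 and 23.7 CPM in Het_Nrp1- and 24.4, 54.2, 1.38 and 21.4 CPM in Het_WT. The LN ds1 sample was the lowest of its group in all 3, and in N and Het_Nrp1- it lay within the tumour range. Summed over samples, Het_Nrp1- tumours held 3 counts and LN 1257, so the level was 517 times higher in LN (95% counting interval 177 to 2511). Het_WT tumours held 2 counts and LN 2631, 1218 times higher in LN (337 to 10059.9 by counting). These intervals cover counting error only. edgeR's adjusted p was 0.0580 in N, 0.0460 in Het_Nrp1- and 0.0421 in Het_WT. Both heterozygous calls were lost on leaving out any 1 of the 8 samples other than the LN ds1 sample (adjusted p 0.0711 to 0.208 in Het_Nrp1- and 0.0720 to 0.195 in Het_WT), and N passed without its LN ds1 sample (adjusted p = 0.0442).

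Levels of B cell markers were also higher in LN Tregs. The 10 genes of that list, among them Ms4a1, Fcer2a and Pax5, summed to 6.04 to 24.7 CPM in N, 4.0 to 40.3 CPM in Het_Nrp1- and 25.4 to 39.7 CPM in Het_WT tumour Tregs. They summed to 37.2 to 411 CPM in N, 179 to 634 CPM in Het_Nrp1- and 48.4 to 568 CPM in Het_WT LN Tregs. All 10 had counts in each group except Pax5, which was at 0 in Het_WT tumours. Ms4a1 fell in Het_Nrp1- tumours (adjusted p = 0.0448) and Fcer2a in N tumours (adjusted p = 0.0420) in edgeR's test, and none of the 10 was called in Het_WT. Faim3 did not follow the list in every library, since the ds1 LN samples of Het_Nrp1- and N held 0 and 0.116 CPM of Faim3 beside 198 and 170.0 CPM of the list. Other LN samples low in Faim3 were also low in the list: N ds2 had 3.59 CPM of Faim3 beside 37.2 CPM of the list, and Het_WT ds1 1.38 beside 48.4 CPM. Among WT LN samples, ds1 had 0 beside 7.61 CPM and ds2 0.154 beside 25.8 CPM. The part of B cell RNA in the Faim3 difference was not tested.

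**Figure D3:**
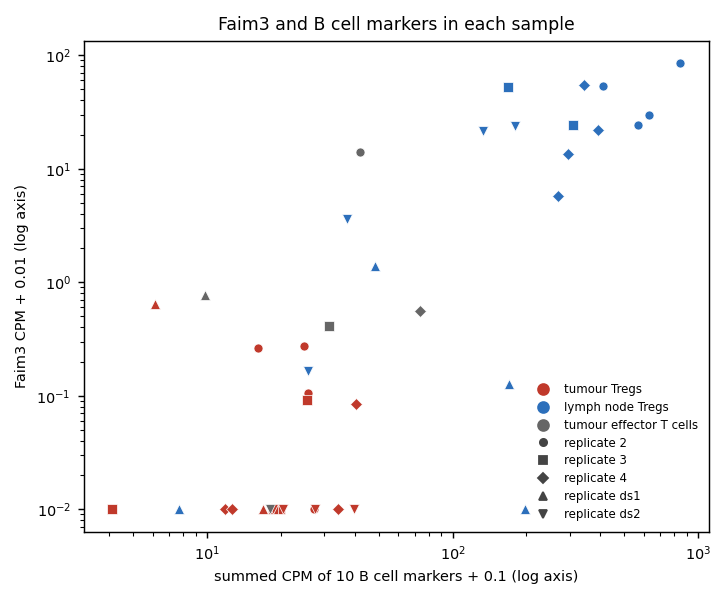
CPM of Faim3 plus 0.01 against the summed CPM of 10 B cell markers plus 0.1 (log axes) in each of the 41 samples. Samples with over 10 CPM of Faim3 are LN Tregs with at least 133 CPM of the list and 1 effector T cell sample, and 2 LN ds1 samples with 170.0 and 198 CPM of the list hold at most 0.116 CPM of Faim3.

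Igfbp4 encodes a secreted protein that binds insulin-like growth factors and is also found in naive T cells. Its locus is on chromosome 11 (mm10, 99041244 to 99054392, plus strand). N Tregs had 1.77, 0.331, 2.00, 0 and 0.986 CPM in tumours, against 207, 181, 205, 183 and 118 CPM in LN. Het_Nrp1- Tregs stood at 6.48, 0.905, 5.76 and 1.23 CPM in tumours, against 155, 149.8, 182 and 135 CPM in LN. Het_WT Tregs stood at 7.06, 0.660, 1.21 and 0 CPM in tumours, against 114, 114, 73.7 and 47.6 CPM in LN. Every tumour sample lay far below every LN sample in all 3 kinds. It fell in all 3, with log2 fold changes of -7.41 in N (-9.41 to -5.41, edgeR adjusted p = 7.25e-06), -5.41 in Het_Nrp1- (-7.43 to -3.39, adjusted p = 0.00250) and -5.25 in Het_WT (-7.25 to -3.24, adjusted p = 0.00520). The mean in tumour was 0.569% of that in LN for N, 2.31% for Het_Nrp1- and 2.56% for Het_WT. Without tumour replicate 3 or 4 the Het_WT call was lost (adjusted p = 0.0792 and 0.0728), and without tumour replicate 2 its log2 fold change was -6.83.

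Prg4 encodes lubricin, a secreted proteoglycan that lubricates joints and can bind Cd44. The gene is on chromosome 1 (mm10, 150449412 to 150466165, minus strand), and 204 bases of its exons are shared with Tpr on the other strand. The sources used here give no strand setting for the counting, so reads of Prg4 and Tpr there cannot be told apart. Tpr averaged 412 ± 155 CPM in N tumour and 412 ± 188 CPM in N LN Tregs (SD). Prg4 ran from 12.6 to 22.3 CPM in N tumours, against 24 to 51.3 CPM in LN, without overlap. Het_Nrp1- tumours held 5.69 to 16.6 CPM, against 1.13 to 52.9 CPM in LN, where ds1 was the lowest. Het_WT tumours held 15.1 to 51.1 CPM, against 38.6 to 136 CPM in LN, where ds1 was the highest. The ranges overlapped in both heterozygous groups. Log2 fold changes were -1.21 in N (-2.58 to 0.16), -1.21 in Het_Nrp1- (-2.75 to 0.32) and -1.42 in Het_WT (-2.96 to 0.12), and all 3 intervals included 0 (edgeR adjusted p 0.606 to 0.666).

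Tbc1d4, also known as AS160, is a GTPase-activating protein for Rab proteins and a target of Akt that controls glucose transporter traffic in muscle and fat. On mm10 its locus spans 101442360 to 101609191 of chromosome 14 (minus strand). Levels ran from 43.2 to 111 CPM in N tumours, against 179 to 409 CPM in LN. They ran from 33.2 to 178 CPM in Het_Nrp1- tumours, against 195 to 916 CPM in LN, and from 66.7 to 155 CPM in Het_WT tumours, against 121 to 462 CPM in LN. The groups overlapped in Het_WT, through tumour replicate 2, and not in N or Het_Nrp1-. Log2 fold changes were -1.87 in N (-3.08 to -0.65), -2.20 in Het_Nrp1- (-3.58 to -0.83) and -1.43 in Het_WT (-2.78 to -0.09). The intervals left out 0, but edgeR's adjusted p over all genes was 0.168, 0.143 and 0.568, none below the threshold.

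Ift80 encodes a subunit of the intraflagellar transport complex that builds cilia. Its locus is on chromosome 3 (mm10, 68892499 to 69004570, minus strand), 168 bases from Smc4 on the other strand. In N it stood at 69.8, 40.6, 52.7, 10.8 and 66.0 CPM in tumours, against 379, 347, 410.5, 775 and 429 CPM in LN. In Het_Nrp1- it stood at 25.1, 41, 65.2 and 78.2 CPM in tumours, against 334, 421, 589 and 452 CPM in LN. In Het_WT it stood at 51.8, 38.7, 50.02 and 86.1 CPM in tumours, against 422, 321, 339 and 361 CPM in LN. The highest tumour sample of the 3 kinds, 86.1 CPM, lay far below the lowest LN sample, 321 CPM, and the ds1 sample was the lowest tumour sample and the highest LN sample in N. It fell in each, with log2 fold changes of -3.28 (-4.22 to -2.35, edgeR adjusted p = 7.25e-06) in N, -3.10 (-4.14 to -2.06, adjusted p = 0.000400) in Het_Nrp1- and -2.67 (-3.69 to -1.65, adjusted p = 0.00333) in Het_WT. The Het_WT call was lost without tumour replicate 2, 3 or 4 (adjusted p = 0.0587, 0.0733 and 0.0594). Smc4, a condensin subunit, averaged 879 ± 419.6 CPM in N tumour and 1915 ± 851 CPM in N LN Tregs (SD), its fitted log2 change being -1.12 (adjusted p = 0.137), and in Het_Nrp1- it fell by 1.98 on the log2 scale (adjusted p = 0.00407).

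Dapl1 encodes a small protein related to the death-associated protein Dap. The gene is on chromosome 2 (mm10, 59484653 to 59505020, plus strand). N Tregs held 2.30, 0.910, 1.2, 0.159 and 0.197 CPM in tumours, against 37.6, 29.4, 36.6, 40.4 and 8.09 CPM in LN. Het_Nrp1- Tregs held 4.57, 1.58, 3.53 and 0 CPM in tumours, against 64.2, 37.2, 0.676 and 11.0 CPM in LN. Het_WT Tregs held 0.235, 1.48, 2.72 and 0 CPM in tumours, against 42.7, 29.0, 113 and 5.00 CPM in LN. Of these 3 kinds, the groups overlapped only in Het_Nrp1-, where LN ds1 lay within the tumour range, and in Het_WT the ds1 sample was instead the highest. The log2 fold change was -4.91 in N (-7.26 to -2.56, edgeR adjusted p = 0.0218), -3.51 in Het_Nrp1- (-5.96 to -1.07, adjusted p = 0.206) and -5.34 in Het_WT (-8.01 to -2.67, adjusted p = 0.0683). The N call was lost without LN replicate 2 or tumour replicate 3, 4, ds1 or ds2 (adjusted p 0.0521 to 0.0827).

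The WT samples that chose the genes are given as a description. Gpr83 ran from 0 to 10.2 CPM in WT tumour Tregs, against 16.5 to 115 CPM in WT LN Tregs. Folr4 ran from 145 to 464 CPM in tumours, against 282 to 826 CPM in LN, and Faim3 from 0 to 0.254 CPM in tumours, against 0 to 85.3 CPM in LN. Faim3 in WT LN was again at 0 in ds1 and near it in ds2. For Igfbp4 the WT ranges were 0 to 14.0 CPM in tumours, against 132 to 291 CPM in LN, and for Prg4 1.28 to 16.6 CPM in tumours, against 47.5 to 107 CPM in LN. Tbc1d4 showed 4.69 to 42.9 CPM in tumours, against 99.9 to 732 CPM in LN, and Ift80 10.7 to 74.4 CPM in tumours, against 274 to 603 CPM in LN. Dapl1 had 0 to 3.55 CPM in tumours, against 0 to 112 CPM in LN, with the 0 among LN samples in ds1. The fitted log2 fold changes, tumour over LN, lay between -1.13 for Folr4 and -8.63 for Faim3, with -3.15 for Prg4, -3.32 for Ift80, -3.59 for Tbc1d4, -4.88 for Igfbp4, -4.96 for Gpr83 and -5.16 for Dapl1.

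Levels of N and WT Tregs are set side by side with no test, since WT chose the genes. In tumours Gpr83 averaged 17.4 ± 26.1 CPM in N and 2.58 ± 4.33 CPM in WT, and Tbc1d4 82.2 ± 34.6 CPM in N and 23.8 ± 14.2 CPM in WT (SD, n = 5 each). The spread of Gpr83 in N tumours came mostly from the ds1 sample at 63.4 CPM. Igfbp4 averaged 1.02 ± 0.870 CPM in N and 6.33 ± 6.32 CPM in WT tumours. In LN the averages of these genes were 88.9 ± 31.8 CPM in N and 76.2 ± 36.4 CPM in WT for Gpr83, 299.8 ± 90.2 and 285 ± 253 CPM for Tbc1d4 in N and WT, and 179 ± 36.2 and 191 ± 59.4 CPM for Igfbp4 in N and WT. Summed over the 8 genes, samples held 391 to 604 CPM in N, 298 to 548 CPM in Het_Nrp1-, 345 to 554 CPM in Het_WT and 208 to 595 CPM in WT tumour Tregs. In LN Tregs the sums were 1312 to 2365 CPM in N, 1324 to 2362 CPM in Het_Nrp1-, 1062 to 1613 CPM in Het_WT and 1138 to 2113 CPM in WT. In the 3 kinds of Treg that did not choose the genes, no tumour sample reached the lowest LN sample on this sum, which Folr4, Ift80 and Tbc1d4 dominate. The WT sums only describe the choice, and how often other sets of genes separate so was not measured.

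Het_Nrp1- and Het_WT Tregs were compared within each tissue to ask whether Nrp1 loss alters these genes in cells from heterozygous mice. None of the 8 differed past the threshold in LN or in tumour, and for none was the tissue difference called as differing between the 2 kinds of cell. In all 3 comparisons edgeR called 0 of the 8, against 0% of all genes. None of the 8 had an unadjusted p below 0.05 in edgeR, against 952 of 14668 genes in LN, 291 in tumour and 571 for the tissue difference. DESeq2 also called 0 of the 8, against 254, 12 and 33 of all genes in LN, in tumour and for the tissue difference. In LN the log2 fold changes, Het_Nrp1- over Het_WT, ran from -1.42 for Prg4 (-2.96 to 0.12, adjusted p = 0.823) to 0.83 for Igfbp4 (-0.85 to 2.50). Prg4 averaged 26.5 ± 21.5 CPM in Het_Nrp1- and 71.1 ± 44.0 CPM in Het_WT LN Tregs, and Igfbp4 155 ± 19.6 CPM in Het_Nrp1- and 87.4 ± 32.6 CPM in Het_WT (SD, n = 4 each). For Igfbp4 the LN samples did not overlap, with 135 CPM the lowest in Het_Nrp1- and 114 CPM the highest in Het_WT. The share of all genes separated so between these groups was not measured. The interval of Igfbp4 rests on 1 spread fitted over all 9 groups, tumour Tregs near 0 CPM among them. None of 18 alternative settings called it in LN. In tumours the changes ran from -1.41 for Gpr83 (-3.39 to 0.57) to 1.09 for Dapl1 (-1.19 to 3.36). Gpr83 averaged 4.55 ± 3.03 CPM in Het_Nrp1- and 11.9 ± 4.82 CPM in Het_WT tumours. The tissue difference of Het_Nrp1- minus that of Het_WT ran from -2.04 for Gpr83 (-4.80 to 0.71) to 1.83 for Dapl1 (-1.35 to 5.00). The tightest intervals were those of Folr4, -0.87 to 0.78 in LN and -0.89 to 0.76 in tumours, and of Ift80, -0.64 to 1.28 and -1.08 to 0.85. The widest were those of Faim3, -3.47 to 2.61 in LN and -3.24 to 4.55 in tumours, so changes of several fold in Faim3 were not detectable here. The p-values do not show that both kinds of cell are alike.

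Effector T cells, the other T cell sorted from tumours, split the 8 genes. Of the 9 groups, effector T cells had the highest mean of Igfbp4 and Dapl1 and the lowest of Folr4 and Prg4, and Gpr83 and Tbc1d4 were low there. N tumour Tregs, which come from other mice than the WT effector T cells, had 2 of the 8 lower than effector T cells (Igfbp4 and Dapl1, against 1.39% of all genes lower) and 1 higher (Folr4, against 3.77%). N LN Tregs had 3 higher (Folr4, Tbc1d4 and Ift80, against 1.61% of all genes) and 0 lower, where genotype, tissue and cell type differ together. In edgeR 5 of the 8 had an unadjusted p below 0.05 in the tumour comparison and 7 in the LN one, against 2362 and 1539 of all 14668 genes. DESeq2 called 3 and 5 of the 8, against 1432 and 562 of all genes. Both comparisons share the effector T cell samples. Every N tumour Treg sample lay below every effector T cell sample for Igfbp4 and Dapl1 (3.03% of all genes) and above for Folr4 (4.92%). Every N LN Treg sample lay above effector T cells for Gpr83, Folr4, Prg4, Tbc1d4 and Ift80 (2.07% of all genes) and below for Igfbp4 and Dapl1 (0.961%).

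Igfbp4 was 879, 1189, 524, 399.6 and 396 CPM in effector T cells. With 0 to 2.00 CPM in N tumour Tregs, its log2 fold change over effector T cells was -9.33 (-11.49 to -7.18, edgeR adjusted p = 3.36e-08), and for N LN Tregs it was -1.92 (-3.46 to -0.38, adjusted p = 0.298). Dapl1 was 225, 226, 305, 299 and 96.7 CPM in effector T cells, above all N LN Treg samples. Its log2 fold change was -7.83 for N tumour Tregs (-10.50 to -5.16, adjusted p = 4.97e-05) and -2.92 for N LN Tregs (-5.04 to -0.80, adjusted p = 0.218). Neither LN difference passed the threshold, and on the authors' deposited log2 values that of Igfbp4 turned to 0.69.

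Folr4 was 103, 113, 90.5, 79.4 and 107 CPM in effector T cells, the narrowest spread of its 9 groups. It was higher in Tregs, with a log2 fold change of 1.57 for N tumour Tregs (0.82 to 2.33, edgeR adjusted p = 0.00444) and 2.49 for N LN Tregs (1.72 to 3.27, adjusted p = 1.84e-05). Ift80 stood between, at 171, 132, 66.3, 60.6 and 176 CPM in effector T cells. Its log2 fold change was -1.34 for N tumour Tregs (-2.21 to -0.46, adjusted p = 0.0608) and 1.95 for N LN Tregs (1.06 to 2.84, adjusted p = 0.00618). The LN call of Ift80 was lost without effector replicate 4 (adjusted p = 0.0572), and in tumours it passed without effector replicate 4 or ds1 (adjusted p = 0.0497 and 0.0344).

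Gpr83 was 2.17, 14.0, 16.7, 1.19 and 16.6 CPM in effector T cells and overlapped tumour Tregs, with a log2 fold change of 0.78 for N tumour Tregs (-0.96 to 2.52, edgeR adjusted p = 0.782) that turned to -0.81 without the N tumour ds1 sample. For N LN Tregs it was 3.14 (1.27 to 5.01, adjusted p = 0.0724). Tbc1d4 ran from 2.48 to 110.3 CPM in effector T cells. Its log2 fold change was 0.97 for N tumour Tregs (-0.23 to 2.16, adjusted p = 0.465) and 2.83 for N LN Tregs (1.57 to 4.09, adjusted p = 0.00493), and without effector replicate 3, the highest, the LN value was 3.58. Prg4 ran from 2.70 to 13.7 CPM in effector T cells, with log2 fold changes of 1.17 for N tumour (-0.21 to 2.54, adjusted p = 0.435) and 2.38 for N LN Tregs (0.95 to 3.80, adjusted p = 0.0756). Faim3 ran from 0 to 14.0 CPM in effector T cells, where replicate 2 alone exceeded 1 CPM, with log2 fold changes of -4.17 for N tumour (-7.40 to -0.94, adjusted p = 0.138) and 2.44 for N LN Tregs (-0.42 to 5.30, adjusted p = 0.594). Among these 4 genes only Tbc1d4 in N LN Tregs passed the threshold.

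**Figure D4:**
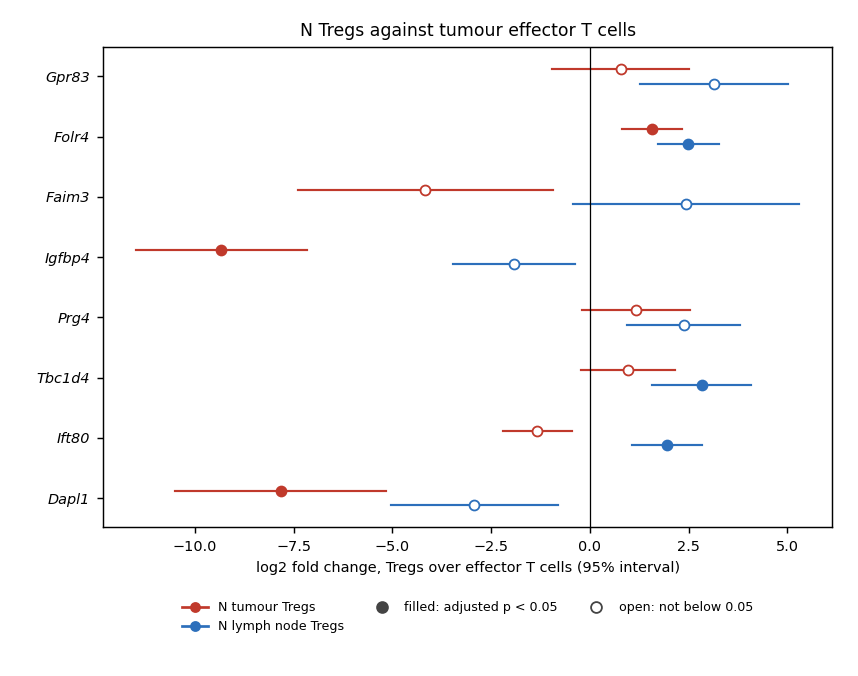
Fitted log2 fold change of N tumour Tregs and of N LN Tregs over tumour effector T cells (n = 5 each) with 95% intervals, where filled points have an adjusted p below 0.05. Igfbp4 and Dapl1 lie left of 0 for both, at -9.33 and -7.83 for tumour Tregs, and Folr4 lies right of 0 for both, at 1.57 and 2.49.

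Ordered by group mean, the 4 LN Treg groups held the highest levels of Gpr83, Folr4, Faim3, Prg4, Tbc1d4 and Ift80, and effector T cells those of Igfbp4 and Dapl1. Groups next to each other in that order overlapped in most cases. The exceptions were WT tumour Tregs and effector T cells for Folr4, effector T cells and WT LN Tregs, Het_Nrp1- and Het_WT LN Tregs, and Het_WT LN and WT tumour Tregs for Igfbp4, and Het_WT LN Tregs and effector T cells for Ift80. Per kilobase of exon, Folr4 had the highest level of the 8 in N LN Tregs, 239.7 CPM per kb, followed by Dapl1 at 44.8, Igfbp4 at 40.5, Tbc1d4 at 39.1 and Ift80 at 37.7 CPM per kb. Gpr83 stood at 17.5, Faim3 at 10.0 and Prg4 at 9.49 CPM per kb there. In N tumour Tregs Folr4 kept 127 CPM per kb and Tbc1d4 10.7 CPM per kb, while the other 6 lay between 0.104 CPM per kb for Faim3 and 4.10 for Prg4. In effector T cells Dapl1 led with 339.6 CPM per kb, followed by Igfbp4 with 153 CPM per kb.

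Over the 9 group means of log2 CPM, which share tissues and libraries, the members were alike to different degrees, given here as a description. These means include WT tumour and WT LN Tregs, whose difference chose the members, so a positive r among members is partly built in. Pearson r was 0.964 for Faim3 with Ift80, 0.946 for Igfbp4 with Dapl1 and 0.926 for Gpr83 with Tbc1d4, and it was 0.118 for Folr4 with Igfbp4 and -0.07 for Folr4 with Dapl1. Gpr83 and its neighbour Folr4 had an r of 0.706. Of all 14668 genes, the pair with the highest r was Brd8 (0.973) and Hivep2 (0.951) for Gpr83, Slc9b2 (0.978) and Tiam1 (0.959) for Folr4, and Atp13a3 (0.982) and Fcer2a (0.972) for Faim3. It was Bend5 (0.982) and Rpl3 (0.982) for Igfbp4, Kcnq5 (0.953) and Notch2 (0.947) for Prg4, and Cxcr5 (0.969) and Pou2f2 (0.954) for Tbc1d4. For Ift80 it was Arhgap20 (0.977) and Igf2r (0.977), and for Dapl1 Actn1 (0.977) and Nfix (0.976). These partner genes were picked for the highest r of 14668 genes over only 9 points. How high such picks run for genes other than the members was not measured.

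A list of 20 resting Treg genes, none of them a member, was also lower in tumour Tregs. It was written with earlier results of these data known, so it is no independent support. In N Tregs 8 of the 20 fell in tumour, against 0.225% of all genes, and 0 rose, against 0.566%. Their median log2 fold change was -2.08, beside 0.06 for all genes. In Het_Nrp1- 11 fell, against 0.307% (median -2.11, beside -0.10), and in Het_WT 5 fell, against 0.075% (median -1.35, beside -0.17). None rose in either, against 0.348% and 0.164%. The smallest adjusted p in N were those of Ccr7, a chemokine receptor for entry into lymph nodes, at 28.3 ± 7.39 CPM in tumour and 334 ± 163 CPM in LN Tregs (SD), and the transcription regulators Tcf7, Foxp1 and Id3, with log2 fold changes of -3.56 for Ccr7, -2.45 for Tcf7, -2.14 for Foxp1 and -4.58 for Id3 (edgeR adjusted p = 7.11e-07 for Ccr7 and 0.00125 for the other 3). Against effector T cells, 16 of the 20 were lower in N tumour Tregs (median -2.58), against 1.39% of all genes. In N LN Tregs 3 were lower (Tcf7, Il7r and Satb1, median -0.83), against 0.109%. The all-gene medians were -0.09 and -0.12. Of the list, 0 were higher in either, against 3.77% and 1.61% of all genes. Ccr7 averaged 617 ± 60.9 CPM in effector T cells, above its mean in N Tregs of either tissue.

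Few genes that work with the members passed the threshold in the tissue comparison, and few of all genes did. Of all genes, 0.225% were called lower and 0.566% higher in N Tregs. The shares were 0.307% and 0.348% in Het_Nrp1- and 0.075% and 0.164% in Het_WT Tregs. At such shares most lists this short would hold no call, so a lack of calls does not set a list apart from other genes. The receptor and transport genes of folate and its metabolism, 10 of 11 listed genes passing the filter, had 0 called by edgeR in N, Het_Nrp1- and Het_WT, 0, 1 and 1 with an unadjusted p below 0.05 and 0, 1 and 0 called by DESeq2, with median log2 fold changes of -0.34, -0.85 and -0.20. A list of intraflagellar transport genes and Trim59, 18 of 19 passing the filter, had 0 called by edgeR in N, Het_Nrp1- and Het_WT. It had 1, 3 and 2 with an unadjusted p below 0.05 and 0, 3 and 0 called by DESeq2, with median log2 fold changes of -0.36, 0.07 and -0.64. Rab GTPase-activating and glucose uptake genes, 11 of 12, had 0 called by edgeR in N, Het_Nrp1- and Het_WT, 2, 1 and 2 with an unadjusted p below 0.05 and 0, 0 and 1 called by DESeq2, with median log2 fold changes of -0.16, -0.21 and 0.02. A list of other partners, 5 of 7 passing the filter, had 0 called by edgeR in N, Het_Nrp1- and Het_WT, 0, 1 and 1 with an unadjusted p below 0.05 and 0, 0 and 0 called by DESeq2, with median log2 fold changes of 0.82, 0.95 and 0.81. Of the insulin-like growth factor genes, 8 of 12 passed the filter, and Igf1r, the receptor, fell in Het_Nrp1- tumours, with 12.5 ± 4.64 CPM in tumour and 111 ± 79.6 CPM in LN Tregs (SD, n = 4 each, log2 fold change -3.15, edgeR adjusted p = 0.0296). Its log2 fold change was -1.49 in N (adjusted p = 0.405) and -3.03 in Het_WT (adjusted p = 0.0686). The insulin-like growth factor list had 3, 3 and 3 genes with an unadjusted p below 0.05 in N, Het_Nrp1- and Het_WT in edgeR. DESeq2 called 0, 2 and 1 of them. Their median log2 fold changes were 0.40, -2.04 and -2.32, beside 0.06, -0.10 and -0.17 for all genes. Of the Fc receptor and IgM genes, 8 of 10 passed the filter, and Fcer2a, the low-affinity IgE receptor of B cells, fell in N tumours (log2 fold change -7.36, adjusted p = 0.0420), with 0.0717 ± 0.0993 CPM in tumour and 11.4 ± 10.4 CPM in LN Tregs. It is also on the list of B cell markers above. The Fc receptor and IgM list had 2, 2 and 2 genes with an unadjusted p below 0.05 in N, Het_Nrp1- and Het_WT in edgeR. DESeq2 called 1, 1 and 1 of them, and their median log2 fold changes were 0.08, -1.41 and -1.41.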

How the data were processed

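RNA of 45 libraries in 9 groups was analysed from a table of gene counts, which the authors deposited as raw counts per gene symbol. STAR, featureCounts, limma and the mm10 build are named, per the submitters' processing notes, with no versions. SMARTer Ultra Low cDNA and Nextera XT libraries were sequenced on a NextSeq 500, per the labels' protocols. A second table, which the authors deposited as normalized, filtered log values of 10832 genes, was taken as log2 because limma works on that scale. It served only as an alternative, and in it each gene had the same mean in every replicate number.

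Pairs of libraries of a group with a chi-square per degree of freedom below 5, over genes with at least 10 counts, were summed, which left 41 samples. Genes were kept by edgeR's filterByExpr (14668 of 23420), scaled by TMM and tested with edgeR 4.0.16 (R 4.3.3) in 1 robust quasi-likelihood fit over all 41 samples (residual df 32), with 8 contrasts and Benjamini-Hochberg adjustment over all genes at 0.05. The script was tested on simulated data. DESeq2 1.42.0, limma 3.58.1, DESeq2's size factors, no filter on low counts, only the compared groups, all 45 libraries, a replicate block, leaving out each sample, and leaving out the ds libraries were tried as alternatives. Symbols were matched to GENCODE vM21, 21779 of 23420.

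The members, the lists and the tests were chosen with earlier results of these data known. All 8 members were named, with the 2 genes most like each over the group means, called genes of the lists, at most 5 per list, and neighbouring genes. Some B cell markers and Nrp1 were also named, and single values of some other listed genes are not reported here. Replicate numbers were taken to pair samples where every same-numbered pair's deviations correlated above 0.1. That bar was met by Het_Nrp1- and Het_WT LN Tregs alone (4 pairs, lowest r 0.106) and narrowly missed by N (lowest r 0.0951), from the data and not the labels, and a replicate block there also called 0 members.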

Additional observations from a re-analysis of the deposited data

Results flagged for a closer look

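In 13 of 72 sets of a gene and a group, the highest sample stood far from the others of its group by Dixon's test. Chance flags about 1 of 20 sets where values are normally distributed, and its rate for unlogged CPM such as these, with sets near 0 among them, was not measured. No explanation was weighed. The ds1 samples named below all had low TMM factors, given with Gpr83 above.

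Gpr83 was flagged in 4 groups. It stood at 63.4 CPM in N tumour ds1, with the others at 2.27 to 13 CPM. It stood at 353 CPM in Het_Nrp1- LN ds1, with the others at 67.4 to 96.4 CPM, and at 168 CPM in Het_WT LN ds1, with the others at 69.6 to 77.1 CPM. In WT tumours ds2 held 10.2 CPM and the others at most 2.13 CPM. Folr4 stood at 464 CPM in WT tumour ds2, with the others at 145 to 218 CPM, and at 681 CPM in Het_WT LN ds2, with the others at 308 to 365 CPM.

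Faim3 was 0.254 CPM in WT tumour replicate 2 and 0.0825 CPM in Het_WT tumour replicate 3, where all others were 0, and 14.0 CPM in effector T cell replicate 2, where the others were at most 0.756 CPM. Tbc1d4 stood at 155 CPM in Het_WT tumour replicate 2, with the others at 66.7 to 73.0 CPM, and at 732 CPM in WT LN replicate 3, with the others at 99.9 to 213 CPM. Ift80 stood at 775 CPM in N LN ds1, with the others at 347 to 429 CPM. Dapl1 stood at 3.55 CPM in WT tumour replicate 3, with the others at most 0.768 CPM.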

How the results depend on the processing

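No member changed sign in the 3 tissue comparisons under any alternative run, while the number called moved. In N Tregs 5 members were called, against 3, with a replicate block, without the ds1 and ds2 libraries, and without the ds1 libraries, a choice made after seeing the data. In Het_Nrp1- Tregs 2 were called, against 4, without the ds2 libraries and 1 on the authors' deposited log2 values with limma, and in Het_WT Tregs 1 was called, against 3, under each of these. N tumour Tregs against effector T cells gave 5, against 3, without the ds1 libraries. N LN Tregs against effector T cells gave 5, against 3, with DESeq2, only the compared groups, all 45 libraries, without the ds1 and ds2 libraries and on the authors' log2 values. The cause was not tested.

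Leaving out 1 sample gave 2 to 4 calls in N, 2 to 3 in Het_Nrp1- (2 without any 1 tumour sample), 0 to 3 in Het_WT (0 without tumour replicate 3 or 4, and 1 without tumour replicate 2), 3 to 4 in N tumour Tregs and 2 to 3 in N LN Tregs against effector T cells, and 0 to 0 in the 3 genotype comparisons. Gpr83 in N tumour Tregs over effector T cells reversed to -0.38 with the replicate block, -1.66 without ds1 and ds2, -1.06 without ds1 and -0.81 without the N tumour ds1 sample, the lowest of -0.81 to 1.06 on leaving out 1 sample. On the authors' log2 values Igfbp4 in N LN Tregs over effector T cells was 0.69, and Dapl1 in Het_Nrp1- over Het_WT tumours was -0.050. In the genotype comparisons 12 of 144 values changed sign in LN, 19 of 143 in tumours and 30 of 208 for the tissue difference.

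Outside the LN genotype comparison the replicate numbers missed the bar of 0.1 for pairing, with the lowest correlation of same-numbered samples 0.0951 in N, 0.0149 in Het_Nrp1-, -0.0519 in Het_WT and 0.0707 between the genotypes in tumours. As a hint from the data, 10 of 10 samples in N, 6 of 6 in Het_Nrp1-, 3 of 6 in Het_WT and 8 of 8 between the genotypes in tumours correlated best with their own number. The block gained the calls of Gpr83 (log2 fold change -3.23, adjusted p = 0.0446) and Folr4 (-0.94, adjusted p = 0.0291) in N, Dapl1 in Het_Nrp1- (-4.02, adjusted p = 0.0499) and Het_WT (-5.91, adjusted p = 0.00750), and, against effector T cells, Ift80 in N tumour (-1.31, adjusted p = 0.0352) and Prg4 in N LN Tregs (2.43, adjusted p = 0.0499). Over all genes, calls ran from 55 to 407 in N (116 in the fit reported), 6 to 777 in Het_Nrp1- (96), 18 to 281 in Het_WT (35), 560 to 1432 in N tumour (757) and 109 to 562 in N LN Tregs (252) against effector T cells, and 0 to 254, 12 and 33 in the genotype comparisons of LN, tumour and tissue difference (0), with DESeq2 the highest in each.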

Other observations

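A list of 20 effector Treg genes moved in the other direction from the resting genes. It was written with earlier results of these data known. In N Tregs 7 of the 20 were higher in tumour, against 0.566% of all genes, and 0 lower, against 0.225% (median log2 fold change 1.97). In Het_Nrp1- 5 were higher, against 0.348% (median 2.73), and in Het_WT 3, against 0.164% (median 1.54). None was lower in either, against 0.307% and 0.075%. The all-gene medians were 0.06, -0.10 and -0.17 in N, Het_Nrp1- and Het_WT. In N the 7 higher genes included Tnfrsf9 (log2 fold change 2.68, adjusted p = 0.000144), Icos (1.85, adjusted p = 0.00145) and Tnfrsf18 (1.34, adjusted p = 0.00497), which are costimulatory receptors, the granule protease Gzmb (5.77, adjusted p = 0.00988) and the transcription factor Prdm1 (3.59, adjusted p = 0.0130), by edgeR. Against effector T cells 19 of the 20 were higher in N tumour Tregs, against 3.77% of all genes, and 13 in N LN Tregs, against 1.61%. Ctla4 and Tnfrsf18 of this list are also on the list of 8 Treg markers. An excess over effector T cells was thus partly built into the list.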
